A study of Mus musculus with 84 samples.

Results

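The perilipins and other lipid droplet proteins described here are 9 genes, Plin1, Plin2, Plin3, Plin4, Plin5, Cidec, Fitm2, Bscl2 and G0s2, of the 21851 protein-coding genes of the mouse annotation. They were chosen by name for their role at the lipid droplet, and each was read in all 84 peak lists at its promoter (2000 bp on either side of every transcription start site), along its gene body and over 50 kb on either side. The data ask whether histone marks at these genes differ in adipocytes of obese mice, and whether a difference is still seen after weight loss.

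All lists came from epididymal fat of AdipoERCre x NuTRAP mice (background C576BL6 in the labels, C57BL/N in the methods of the study). The Cre in these mice is driven by the Adipoq promoter and switched on by tamoxifen, which all groups received before the diets began, so that adipocyte nuclei carry a tag by which they were pulled down from snap-frozen tissue. CUT&Tag, in which an antibody against a histone mark directs a DNA-cutting enzyme, was run for H3K4me3 in 21 libraries, H3K27ac in 21, H3K4me1 in 22 and H3K27me3 in 20. In the 12-week cohort, H mice had 12 weeks of high-fat diet (HFD) and were 18 weeks old, and HC mice went back to chow for a further 8 weeks and were 26 weeks old. Their chow-fed controls were C at 18 weeks and CC_s at 26 weeks. The 25-week cohort held HH mice, 31 weeks old after 25 weeks of HFD, and HHC mice, 39 weeks old after 8 more weeks on chow, with CC_l and CCC as the chow-fed controls of those ages. Each of the 32 groups of mark and diet held 3 libraries (20 groups) or 2 (12 groups), labelled as biological replicates.

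A lipid droplet is a core of triglyceride under a single layer of phospholipid, and its surface proteins decide when lipases reach the core. Perilipin 1, encoded by Plin1, coats the large droplet of the fat cell and holds back lipolysis until hormones release it. Plin4 is also abundant in fat cells, Plin2 and Plin3 coat droplets in most tissues, and Plin5 is known from tissues that burn fat. Cidec lets small droplets merge into a large one, and G0s2 inhibits the lipase ATGL. Fitm2 and Bscl2, which encodes seipin, act in the endoplasmic reticulum where droplets form. Of the marks, H3K4me3 is found where transcription starts, H3K27ac accompanies active regulatory DNA of any kind, H3K4me1 is typical of enhancers, and H3K27me3 is laid down by polycomb proteins over repressed genes.

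In GRCm38 coordinates, Plin1 spans chr7:79720218-79732903, Plin2 chr4:86648386-86670060, Cidec chr6:113424634-113435760, Fitm2 chr2:163466379-163472629 and G0s2 chr1:193272161-193273217. Bscl2 at chr19:8837467-8848683 is the only member on the plus strand. Its promoter window and part of its body overlap those of Gng3, so values at the Bscl2 promoter cannot be assigned to either gene. The other perilipins lie on chromosome 17, where Plin4 at chr17:56100591-56109803 is separated by 1798 bp from Plin5 at chr17:56111601-56117596, and Plin3 lies at chr17:56277476-56292873. Flanking values of Plin4 and Plin5 therefore share most of their sequence. The body of G0s2 lies within that of Lamb3, which is read from the other strand, and Plin4 overlaps the end of Hdgfl2.

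The promoter sequences of 4 members are given because their H3K4me3 moved differently, as described below. Each run holds 250 bases before and 50 bases after the start site, from RefSeq for GRCm38.p6, 5′ to 3′ on the strand of the gene, and capitals mark CG dinucleotides.
Plin1, chr7:79732727-79733026, minus strand: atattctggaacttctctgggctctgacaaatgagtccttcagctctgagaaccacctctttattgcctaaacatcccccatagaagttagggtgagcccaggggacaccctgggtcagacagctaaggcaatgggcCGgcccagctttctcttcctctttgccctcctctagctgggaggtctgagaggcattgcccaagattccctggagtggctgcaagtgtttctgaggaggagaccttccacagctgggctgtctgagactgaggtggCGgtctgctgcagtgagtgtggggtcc
Cidec, chr6:113435711-113436010, minus strand: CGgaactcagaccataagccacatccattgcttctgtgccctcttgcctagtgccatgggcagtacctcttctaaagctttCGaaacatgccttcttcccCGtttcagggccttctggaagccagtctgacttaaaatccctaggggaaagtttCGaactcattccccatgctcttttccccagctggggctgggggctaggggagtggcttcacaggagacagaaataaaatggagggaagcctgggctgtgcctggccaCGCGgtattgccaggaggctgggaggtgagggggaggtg
Plin5, chr17:56117499-56117798, minus strand: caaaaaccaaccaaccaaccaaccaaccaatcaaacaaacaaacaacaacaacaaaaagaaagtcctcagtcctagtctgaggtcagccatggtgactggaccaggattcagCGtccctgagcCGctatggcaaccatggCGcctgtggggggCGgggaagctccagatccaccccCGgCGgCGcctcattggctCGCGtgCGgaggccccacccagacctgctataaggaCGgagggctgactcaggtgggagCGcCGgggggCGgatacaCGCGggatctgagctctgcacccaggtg
Plin3, chr17:56290462-56290761, minus strand: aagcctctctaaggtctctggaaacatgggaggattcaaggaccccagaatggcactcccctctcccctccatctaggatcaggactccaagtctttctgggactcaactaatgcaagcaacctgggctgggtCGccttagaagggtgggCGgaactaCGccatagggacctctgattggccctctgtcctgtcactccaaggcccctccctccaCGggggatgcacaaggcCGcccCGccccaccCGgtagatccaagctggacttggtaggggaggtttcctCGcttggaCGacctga
The Plin1 promoter held 2 CG dinucleotides and the upstream Cidec promoter 6, against a median of 7 over 32851 such promoter sequences. Plin3 held 9 and Plin5 16. Among the others, Plin4 held 7, Plin2 10, G0s2 13 and Fitm2 16, and the first of the 3 Bscl2 starts held 16. Motifs were searched on both strands, and none contains another. CCAAT was found at Plin2, Plin3, Plin4, the first Plin5 start and the first Bscl2 start, and in 37.4% of all promoter sequences. AGGTCA was found at Plin2, both Plin5 starts and the second Bscl2 start, and in 16.3% of all. GGGCGG was found at Plin2, Plin3, both Plin5 starts, Fitm2, the third Bscl2 start and G0s2, and in 35.7% of all. CACGTG was found at Plin2 alone (7.15% of all), and TATAAA at no member (13.6% of all).

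A peak list holds the blocks of strongest coverage in 1 library, so a promoter without a peak is one that did not reach that level there, and not one shown to lack the mark. The lists held 11249 to 41976 peaks for H3K4me3, 12174 to 41989 for H3K27ac, 14486 to 40682 for H3K4me1 and 21809 to 46397 for H3K27me3. Mean coverage within peaks ran from 4.89 to 77.7 fragments, and read totals were not analysed here, so the depth is unknown. In H3K4me3, median peak width was 1439 to 1692 bp in C, 850 to 1115 bp in H, 1115 to 1393 bp in CC_s and 821 to 1130 bp in HC. It was 1185 to 1822 bp in the groups of the 25-week cohort. Because coverage was unscaled, the strength of a promoter was taken as the percentile of its largest total peak signal among the 21851 genes of the same library, which is 0 where there is no peak. Titles gave the groups. The treatment field named another group for 4 of the H3K4me3 libraries (HH replicates 2 and 3, CCC replicate 3 and CC_l replicate 2).

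Several libraries stood apart. Over 6 adipocyte markers (Adipoq, Pparg, Fabp4, Lpl, Cfd and Lep) the mean H3K27ac percentile was 63.2 in HC replicate 3, 53.1 in HHC replicate 3 and 39.8 in HH replicate 1, against 77.6 or more in the other 18. The same mice were low in the other marks: H3K4me1 read 15.0, 45.1 and 11.4, and H3K4me3 read 49.5 in HC replicate 3 and 37.5 in HHC replicate 3. These 3, the lowest in H3K27ac, are called the low libraries. H replicate 1 was also low in H3K4me1, at 31.7, but not in H3K27ac, and was kept. Differences at p below 0.05 that did not pass without the low libraries are given with and without them. Medians over members, and differences that did not pass with all libraries, are given with all libraries only.

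The fat-cell members carried some of the broadest promoter peaks of the genome in chow-fed mice. In H3K4me3 and H3K27ac the median library had a peak at 9 of 9 members, where the median library marked 58.1% and 40.4% of all promoters, and in H3K4me1 at 8 of 9 against 17.7%. The adipocyte coat proteins led. Over the 10 chow libraries of H3K4me3 the Plin1 percentile ran from 88.7 to 99.84 with a median of 99.76, and the widest peak at its promoter was wider than 99.5% of those at all marked promoters in the median library. Cidec stood at the 99.7th percentile of width and Plin4 at the 99.2nd by the same measure. Plin3 had the least broad chow peak after Fitm2, at a median width percentile of 85.0 against 79.3 for Fitm2, while Plin2 stood at 94.8, G0s2 at 95.3, Bscl2 at 92.4 and Plin5, in the 8 of 10 chow libraries that marked it, at 97.0. Neighbours in this order overlapped in their ranges over the chow libraries.

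**Figure D1:**
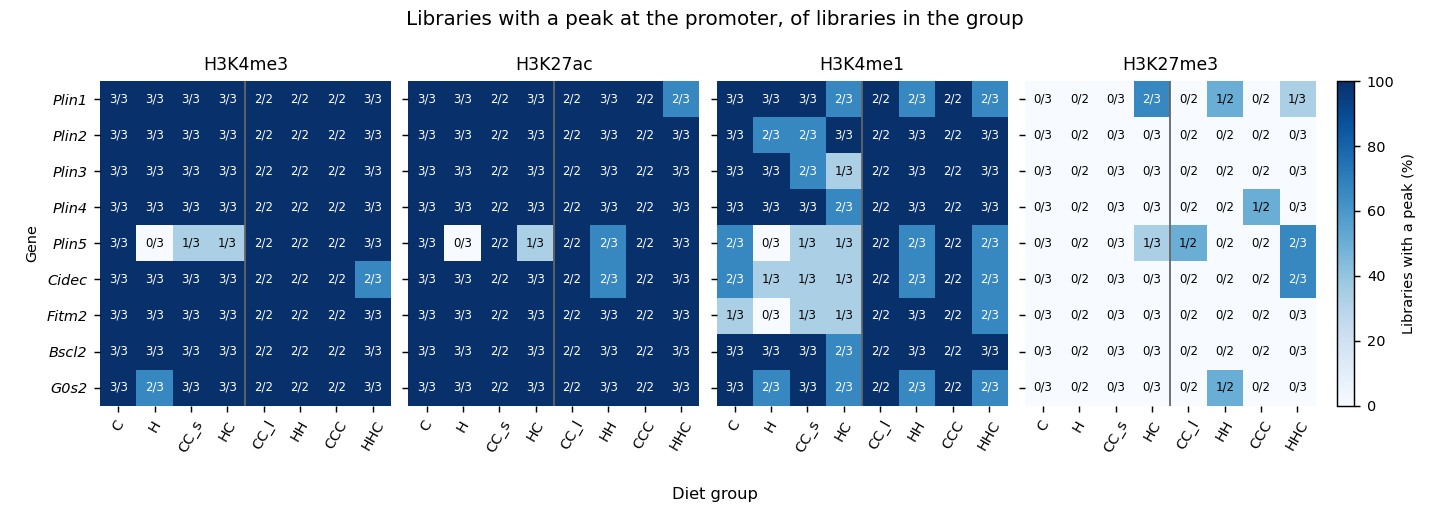
Libraries with a peak at each member's promoter, out of the libraries in the group, for each mark (panels) and diet group (columns), with colour giving the percent of libraries. H3K4me3 and H3K27ac were present almost throughout except at Plin5, which lacked H3K4me3 in 3 of 3 H and 2 of 3 CC_s and HC libraries. H3K27me3 was found at 10 of 90 member promoters in HFD-fed libraries, with none in H, and at 2 of 90 in chow-fed libraries. All promoters were marked at a mean of 18.9% and 17.9%.

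In obese mice, H3K4me3 at the fat-cell members moved down the ranking of promoters, most of all after 12 weeks of HFD. The exact permutation test used here permutes labels within cohorts and averages the difference of means (diet minus control) over both cohorts. At p below 0.05 it found Plin1, Plin4, Plin5, Cidec, Fitm2 and G0s2 lower and Plin3 higher in percentile, where 7.05% of 15907 genes tested were lower and 3.65% higher. The median difference over the 9 members was -11.3 percentage points of rank, beside -0.956 over all genes tested. No gene of the genome passed after Benjamini-Hochberg adjustment over all of them, and the smallest p this design can give is 0.0167.

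Plin1 had H3K4me3 percentiles of 99.8, 99.4 and 99.8 in C and of 56.4, 55.0 and 91.8 in H. In the longer cohort they were 99.62 and 99.76 in CC_l and 99.30 and 99.22 in HH. Every obese library lay below every control of its age, but the gap was 31.9 points in the 12-week cohort and under 1 point in the 25-week cohort, and the mean difference of -16.2 had exact p = 0.0167 (adjusted p = 0.237). The peak itself was narrower: the widest piece at the Plin1 promoter was 8787, 7827 and 11878 bp in C and 1420, 1106 and 1357 bp in H. In CC_l it was 8052 and 17697 bp and in HH 10993 and 12693 bp, so width overlapped between HH and its controls.

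Plin4, the neighbour of Plin5 that also coats fat-cell droplets, fell from 99.4, 99.5 and 99.2 in C to 57.0, 49.2 and 73.2 in H. Its values in CC_l were 99.57 and 99.58 and in HH 98.79 and 98.72, again below the controls by less than 1 point. The mean difference was -20.2 (exact p = 0.0167, adjusted p = 0.237). Its widest peak was 7819, 11371 and 9583 bp in C and 1094, 1017 and 622 bp in H.

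Plin5 was the one member whose peak was gone. Its H3K4me3 percentile was 95.5, 96.1 and 77.8 in C and 0 in each of the 3 H libraries, which held no peak within 2000 bp of its start. In CC_l it was 95.1 and 95.7 and in HH 89.7 and 95.3, which overlap. The mean difference of -46.3 had exact p = 0.0333 (adjusted p = 0.312). With a window of 500 bp on either side it was -4.32 (exact p = 0.867), and in C the widest peak ran on to the promoter of Lrg1 in 3 of 3 libraries.

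Cidec, the droplet fusion protein, read 99.89, 99.87 and 99.88 in C and 60.9, 73.2 and 98.3 in H. All H libraries were below all C libraries, whereas HH (99.16 and 99.78) overlapped CC_l (99.70 and 99.84), and the mean difference was -11.3 (exact p = 0.0333, adjusted p = 0.312). Its widest peak was 9112, 12672 and 13732 bp in C and 2214, 3270 and 2740 bp in H. G0s2, the lipase inhibitor, read 95.6, 93.4 and 95.5 in C against 53.3, 59.96 and 0 in H, and 92.3 and 97.3 in CC_l against 90.0 and 93.2 in HH (difference -30.1, exact p = 0.0333, adjusted p = 0.312). Fitm2 read 87.9, 83.7 and 91.0 in C against 80.3, 60.2 and 73.7 in H, and 93.0 and 93.2 in CC_l against 87.5 and 90.6 in HH (difference -10.1, exact p = 0.0167, adjusted p = 0.237). Fitm2 was thus below its controls in all 5 obese libraries. Groups did not overlap in either cohort, with obese mice lower, at Plin1, Plin4 and Fitm2, as held for 4.84% of all genes, and with obese mice higher at Plin3 alone, as held for 2.19%.

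Plin3 went the other way. Its H3K4me3 percentile was 80.1, 84.3 and 85.8 in C and 92.6, 93.9 and 93.2 in H, and 90.3 and 92.2 in CC_l against 92.4 and 95.4 in HH. All 5 obese libraries lay above their controls, and the mean difference was 6.25 (exact p = 0.0167, adjusted p = 0.237). Plin2, the other widely expressed perilipin, read 93.0 to 99.1 in C and 81.0 to 97.2 in H with a mean difference of -1.77 (exact p = 0.733), and Bscl2 was lower in H and higher in HH (mean -3.35, exact p = 0.4).

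**Figure D2:**
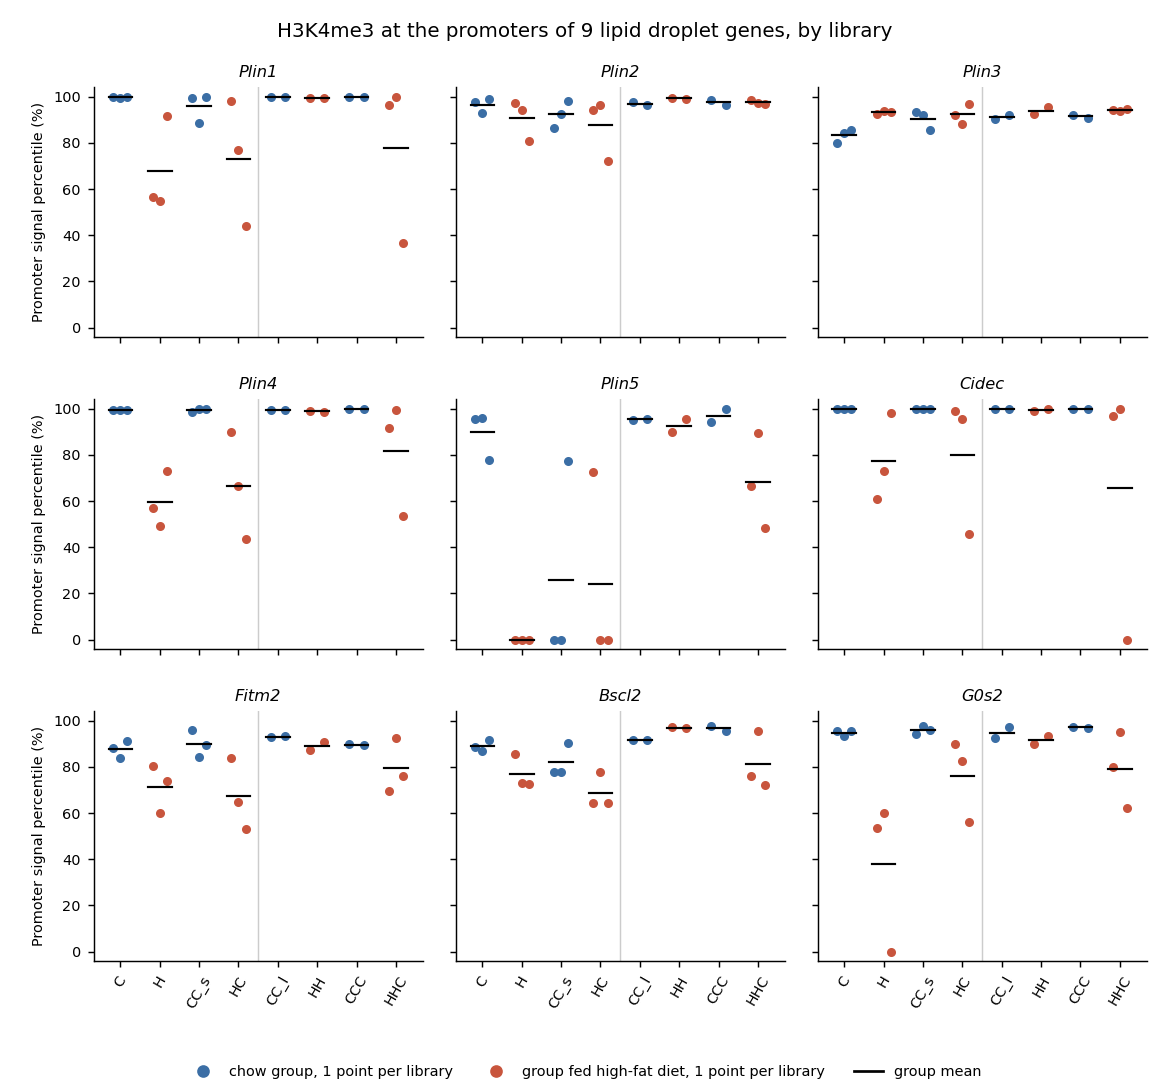
H3K4me3 promoter signal percentile (y axis, %) of each member in each library, by diet group (x axis), with points for libraries and a line for the group mean. Plin1, Plin4, Cidec and G0s2 drop in the 3 H libraries relative to the 3 C libraries and lie near their controls in HH, while Plin3 is higher in H and HH.

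The 25-week part of these differences was small, and the count of 6 lower members depended on single libraries. It was 3 without C replicate 1, C replicate 2, CC_l replicate 2 or HH replicate 2, and 2 without C replicate 3, each of which leaves fewer ways to permute the labels. With groups taken from the treatment field it was 0, where each of the 6 differences kept its sign (Plin1 -15.8, Plin4 -19.5, Plin5 -43.7, Cidec -11.2, Fitm2 -8.35, G0s2 -26.3). Plin3 did not pass with those groups either (4.22, exact p = 0.0833). The H against C values do not involve the relabelled libraries, and 3 libraries against 3 cannot give an exact p below 0.1 alone.

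Markers of cell identity moved with the same libraries. The mean H3K4me3 percentile of the 6 adipocyte markers was 96.6 to 98.2 in C and 65.3 to 74.6 in H, with 6 of 6 marked in C and 4 or 5 of 6 in H, and Cfd marked in 3 C and 0 H libraries. It was 97.4 and 98.7 in CC_l and 90.2 and 91.5 in HH. Macrophage markers (6 genes) averaged 14.3 to 21.6 in C and 0, 50.5 and 60.5 in H, with Adgre1 and Lyz2 unmarked in C and marked in 2 of 3 H libraries, and 15.3 to 15.6 in CC_l and 42.9 to 55.4 in HH. Endothelial markers (4 genes) averaged 11.5 to 32.7 in C and 0, 53.5 and 54.0 in H, and progenitor markers (4 genes, Pi16 at 0 in all 21 libraries) 34.9 to 35.6 in C and 0, 40.8 and 41.5 in H. Lymphocyte (3 genes), mesothelial (4), mural (2) and epithelial (2) markers were at 0 in all H libraries, and in C at most 2 of 4 mesothelial and 1 of 2 mural markers had a peak. In the 25-week cohort endothelial markers averaged 46.5 and 55.5 in HH against 20.7 and 42.8 in CC_l. Progenitor markers averaged 38.1 and 44.1 against 25.2 and 39.9, and lymphocyte markers 12.3 and 12.7 against 0. Mesothelial and mural markers were lower in HH, and epithelial markers overlapped. The part of these cells in the result was not tested. In such bulk preparations a smaller share of adipocyte nuclei and less mark in each nucleus cannot be told apart. The H library in which the macrophage, endothelial and progenitor lists were at 0 (replicate 3) had no G0s2 peak either, and had the highest Plin1, Plin4 and Cidec percentiles of its group. It was also the shortest H3K4me3 list, with 11249 peaks and 41.7% of promoters marked. H replicates 1 and 2 held 20974 and 23137 peaks and marked 54.9% and 55.4%. The part of list length in these values was not tested.

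Across all libraries of a mark, the mean percentile of the 9 members followed that of the 6 adipocyte markers. As a description, Pearson's r was 0.915 in H3K4me3 (n = 21 libraries), 0.957 in H3K27ac (n = 21), 0.834 in H3K4me1 (n = 22) and 0.441 in H3K27me3 (n = 20). The points of a pair share the depth and the mix of nuclei of their library.

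**Figure D3:**
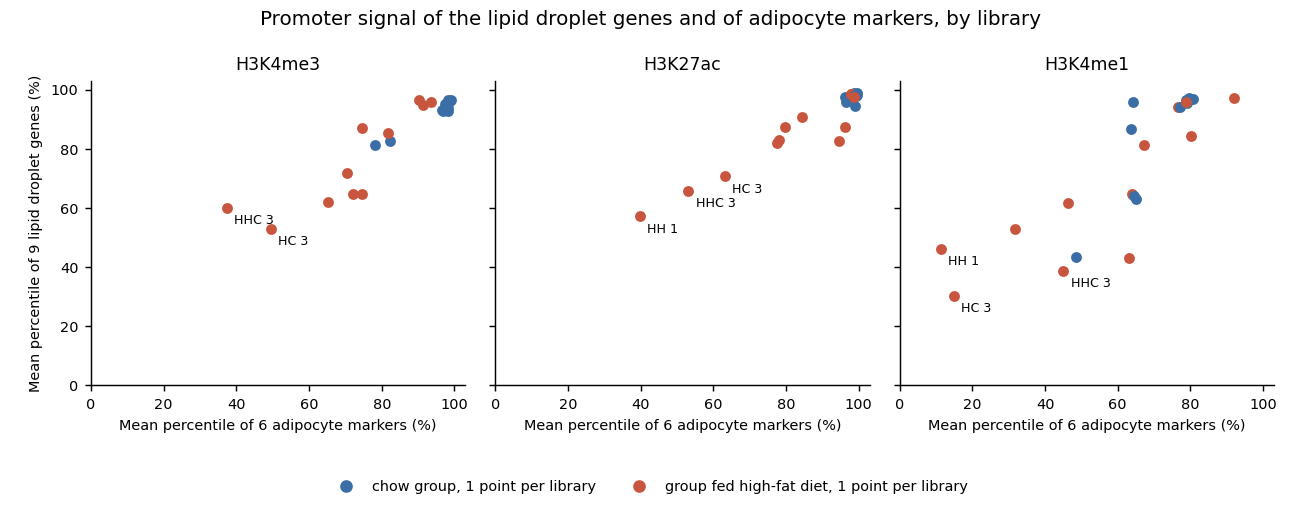
Mean promoter signal percentile of the 9 lipid droplet genes (y axis, %) against that of 6 adipocyte markers (x axis, %), 1 point per library, in panels for H3K4me3, H3K27ac and H3K4me1, with chow and HFD-fed groups in different colours. The libraries with the lowest adipocyte markers also had low values for the members in H3K4me3, H3K27ac and H3K4me1.

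After weight loss, 4 members were lower in H3K4me3 percentile at p below 0.05 (Plin4, Fitm2, Bscl2 and G0s2) and none was higher, where 4.43% of 15907 genes were lower and 5.34% higher. The median difference over members was -16.4 points of rank, beside 0.225 over all genes. Plin4 read 98.6, 99.6 and 99.7 in CC_s against 89.9, 66.4 and 43.6 in HC, and 99.65 and 99.66 in CCC against 91.8, 99.2 and 53.4 in HHC. All 6 weight-loss libraries lay below their controls (difference -25.4, exact p = 0.04, adjusted p = 0.418). Without HC replicate 3 and HHC replicate 3 the difference was -12.7 (exact p = 0.0167).

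G0s2 read 94.2, 97.5 and 96.1 in CC_s against 89.7, 82.4 and 56.2 in HC, and 97.1 and 96.9 in CCC against 79.8, 95.3 and 62.3 in HHC (difference -18.9, exact p = 0.025, adjusted p = 0.418). Without the 2 low libraries it was -9.67 (exact p = 0.0167). Bscl2 read 77.8, 77.9 and 90.4 in CC_s against 64.4, 77.7 and 64.5 in HC, and 97.9 and 95.6 in CCC against 76.0, 95.6 and 72.2 in HHC. Each weight-loss library lay below its controls, in part by little (difference -14.3, exact p = 0.02, adjusted p = 0.41), and without the low libraries the difference was -10.96 (exact p = 0.0167). Fitm2 differed by -16.4 (exact p = 0.04), and without them by -12.0 (exact p = 0.117), which no longer passed. With groups from the treatment field G0s2 (-17.1) and Fitm2 (-15.9) each had exact p = 0.05 and did not pass. Plin4, Bscl2 and G0s2 did not overlap with their controls in either cohort, as held for 1.77% of all genes.

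Plin1 and Cidec, the members with the largest H3K4me3 peaks, did not pass after weight loss, and the libraries of each group differed widely. Plin1 read 98.0, 76.9 and 43.99 in HC against 99.3, 88.7 and 99.8 in CC_s, and 96.5, 99.7 and 36.6 in HHC against 99.84 and 99.84 in CCC (difference -22.6, exact p = 0.145). Cidec read 98.9, 95.4 and 45.6 in HC against 99.84, 99.83 and 99.88 in CC_s, and 96.8, 99.8 and 0 in HHC against 99.73 and 99.83 in CCC (difference -27.1, exact p = 0.21). In both genes replicate 3 was the lowest of its group. HC replicate 1 and HHC replicate 2 lay within 3 points of the controls. Plin3 overlapped CC_s in HC and lay above CCC in all 3 HHC libraries (mean difference 2.49, exact p = 0.19). Adipocyte markers averaged 78.0 to 96.8 in CC_s and 49.5 to 74.6 in HC, and 98.1 to 99.01 in CCC and 37.5 to 93.5 in HHC. Macrophage markers averaged 0 to 13.3 in CC_s and 0 to 33.8 in HC, and 14.8 to 22.5 in CCC and 46.2 to 63.9 in HHC, where 6 of 6 were marked in every library. Endothelial markers separated in both cohorts, at 0 in all CC_s libraries against 24.0, 13.7 and 54.1 in HC, and at 11.2 and 11.7 in CCC against 39.5, 44.9 and 54.5 in HHC. Progenitor markers averaged 0 to 23.2 in CC_s and 25.3 to 43.1 in HC, and 28.8 and 37.8 in CCC against 42.3, 44.1 and 58.1 in HHC. Lymphocyte markers, at 0 in CC_s and CCC, averaged 0 to 14.5 in HC and 24.9 to 47.6 in HHC, and the part of these cells in the result was not tested.

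**Figure D4:**
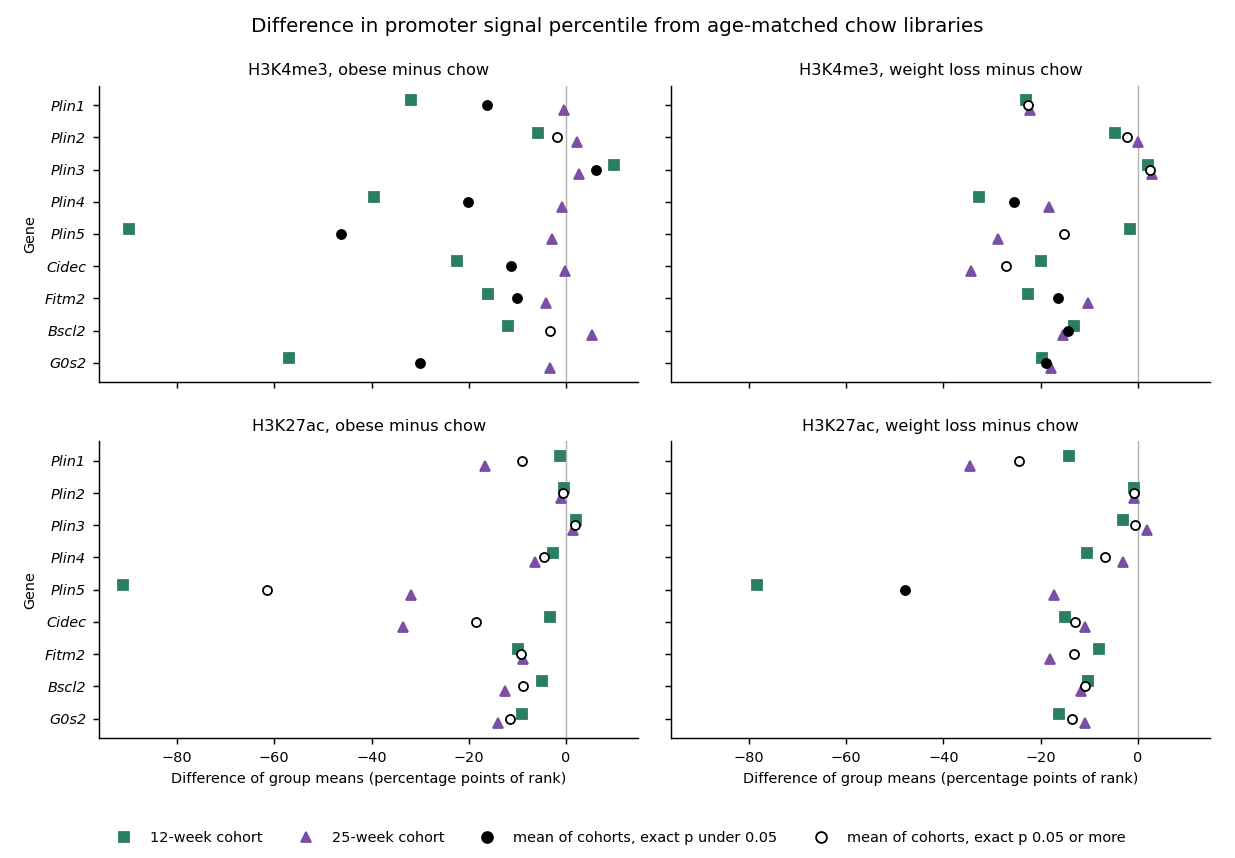
Difference in promoter signal percentile between HFD-fed groups and age-matched chow groups (x axis, percentage points of rank) for each member, for H3K4me3 and H3K27ac in obese and weight-loss mice, with squares for the 12-week cohort, triangles for the 25-week cohort and circles for their mean, filled where exact p was below 0.05. In obese H3K4me3 the 12-week squares lie far left of the 25-week triangles for Plin1, Plin4, Plin5, Cidec and G0s2.

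In H3K27ac, Plin5 and Cidec were again lower in H than in C, but no difference passed. No member passed at p below 0.05 for obese percentile (background 6.09% lower and 3.75% higher of 14447 genes), and the median difference was -9.04 beside -1.72 over all genes. Plin1 stayed near the top with 97.5, 98.2 and 99.7 in H against 99.94, 99.5 and 99.9 in C. In the longer cohort it read 49.6, 99.9 and 99.96 in HH against 99.89 and 99.89 in CC_l, and the low value was HH replicate 1. Plin5 read 97.0, 99.7 and 76.4 in C and 0 in each H library, and 0, 99.7 and 99.7 in HH against 99.6 and 97.1 in CC_l (difference -61.5, exact p = 0.05). Cidec read 99.8, 99.8 and 99.7 in C against 95.8, 96.6 and 96.7 in H. It read 0 in HH replicate 1, the low library of that group. Adipocyte markers averaged 96.6 to 99.4 in C and 77.6 to 79.7 in H in this mark. Macrophage markers averaged 15.5 to 15.8 in C and 52.6, 26.3 and 0 in H, and 15.8 and 15.9 in CC_l against 37.0, 47.7 and 26.5 in HH. Endothelial markers were at 0 in C and averaged 37.0, 20.4 and 0 in H, and their part in the result was not tested.

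After weight loss only Plin5 was lower in H3K27ac percentile at p below 0.05, at 0, 0 and 54.9 in HC against 95.8 and 97.7 in CC_s, and at 74.0, 94.2 and 57.8 in HHC against 99.8 and 85.6 in CCC (difference -47.9, exact p = 0.04, adjusted p = 0.623, where 1.32% of genes were lower and 3.51% higher). Without the low libraries the difference was -52.7 (exact p = 0.111), but too few libraries were then left for any exact p below 0.05. Plin5 did not pass at a stricter threshold, which kept the peaks above the median total signal of each library (-35.6, exact p = 0.19). The difference was 0.754 when the window was 500 bp on either side. Over the members the median was -12.9, beside 8.71 over all genes. Of the CCC controls, replicate 3 held 14917 H3K27ac peaks and marked 17.7% of promoters, against 32907 peaks and 50.8% in replicate 1. A gene without a peak has a percentile of 0, and the part of this short list in the medians was not tested.

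By the stricter rule of presence, a promoter was lost when a peak was found in every control library and in no diet library, and gained in the reverse case. Over 16 comparisons of mark and diet group and 9 members, 2 of 144 calls were made, both at Plin5 in H, and both were losses. In H3K4me3, 1 member of 9 was lost in H, beside 1.71% of all genes, and in H3K27ac 1 of 9, beside 1.94%. Neither Plin5 call was made with a window of 500 bp on either side. Plin5 was also without an H3K4me3 peak in 2 of 3 CC_s libraries, so its absence was not particular to obese mice. Without the low libraries Plin5 also counted as lost in H3K27ac in HC, with 0 of 2 libraries marked against 2 of 2 in CC_s (0.499% of all genes with all libraries).

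Width at the promoter, as base pairs of the window covered, fell past p below 0.05 in obese mice at Fitm2 alone in H3K4me3 and H3K27ac, and rose at no member (0.0126% and 0.526% of genes higher). In H3K4me3 it covered 2673, 2258 and 2445 bp in C against 2222, 2148 and 1312 bp in H, and 2838 and 3018 bp in CC_l against 2249 and 2797 bp in HH (difference -485 bp, exact p = 0.0167, adjusted p = 0.805, where 3.5% of 15907 genes were lower). In H3K27ac it covered 2271, 3304 and 2541 bp in C against 1783, 939 and 1622 bp in H, and 2928 and 3249 bp in CC_l against 2041, 2324 and 2775 bp in HH (difference -983 bp, exact p = 0.01, adjusted p = 0.251, where 13.9% of 14447 genes were lower). All obese libraries were below their controls in both marks, as held for 1.7% and 4.4% of genes. After weight loss no member passed in these marks, where 1.22% of genes were lower and 3.09% higher in H3K4me3, and 0.36% and 1.47% in H3K27ac. Peaks were narrower in H throughout the genome, and when width was divided by the mean of the library the Fitm2 differences turned slightly positive (0.0202 and 0.847 times the mean).

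The largest peaks ran far past the window, and the width of the whole peak differed more in bp. Whole-peak width was not tested, and peaks over the whole H3K27ac lists differed in width too. Their median width was 1765, 1648 and 1372 bp in C against 801, 477 and 700 bp in H. It was 1232 and 1494 bp in CC_s against 672, 906 and 813 bp in HC. In H3K27ac the widest Plin1 peak was 18743, 8944 and 11241 bp in C and 1048, 607 and 3336 bp in H. It was 22293 and 26512 bp in CC_l and 1628, 27480 and 30674 bp in HH, so that 2 of 3 HH libraries held a peak as broad as the controls. Cidec H3K27ac peaks were 14071, 13197 and 8336 bp in C against 1620, 986 and 1107 bp in H, and G0s2 peaks 12043, 7582 and 10414 bp against 1099, 681 and 2387 bp. In HC the Plin1 peak was 3313, 3145 and 502 bp against 8944 and 8176 bp in CC_s. The broad Plin1 domain reached the promoter windows of the neighbours Pex11a, a peroxisome protein, and Wdr93 in 7 of 21 H3K27ac libraries and 10 of 22 H3K4me1 libraries, with 1 of 3 C, 0 of 2 CC_s, 0 of 3 H, 0 of 3 HC and 2 of 3 HH libraries in H3K27ac. A single H3K27ac peak spanned Plin4 and Plin5 in 5 of 21 libraries, of which 1 was in C, 1 in CC_l, 2 in HH and 1 in CCC, and none in CC_s, H, HC or HHC. One H3K4me3 peak ran from Plin5 to the promoter of Lrg1 in 13 of 21 libraries, and one joined Bscl2 to Gng3 in 21 of 21.

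**Figure D5:**
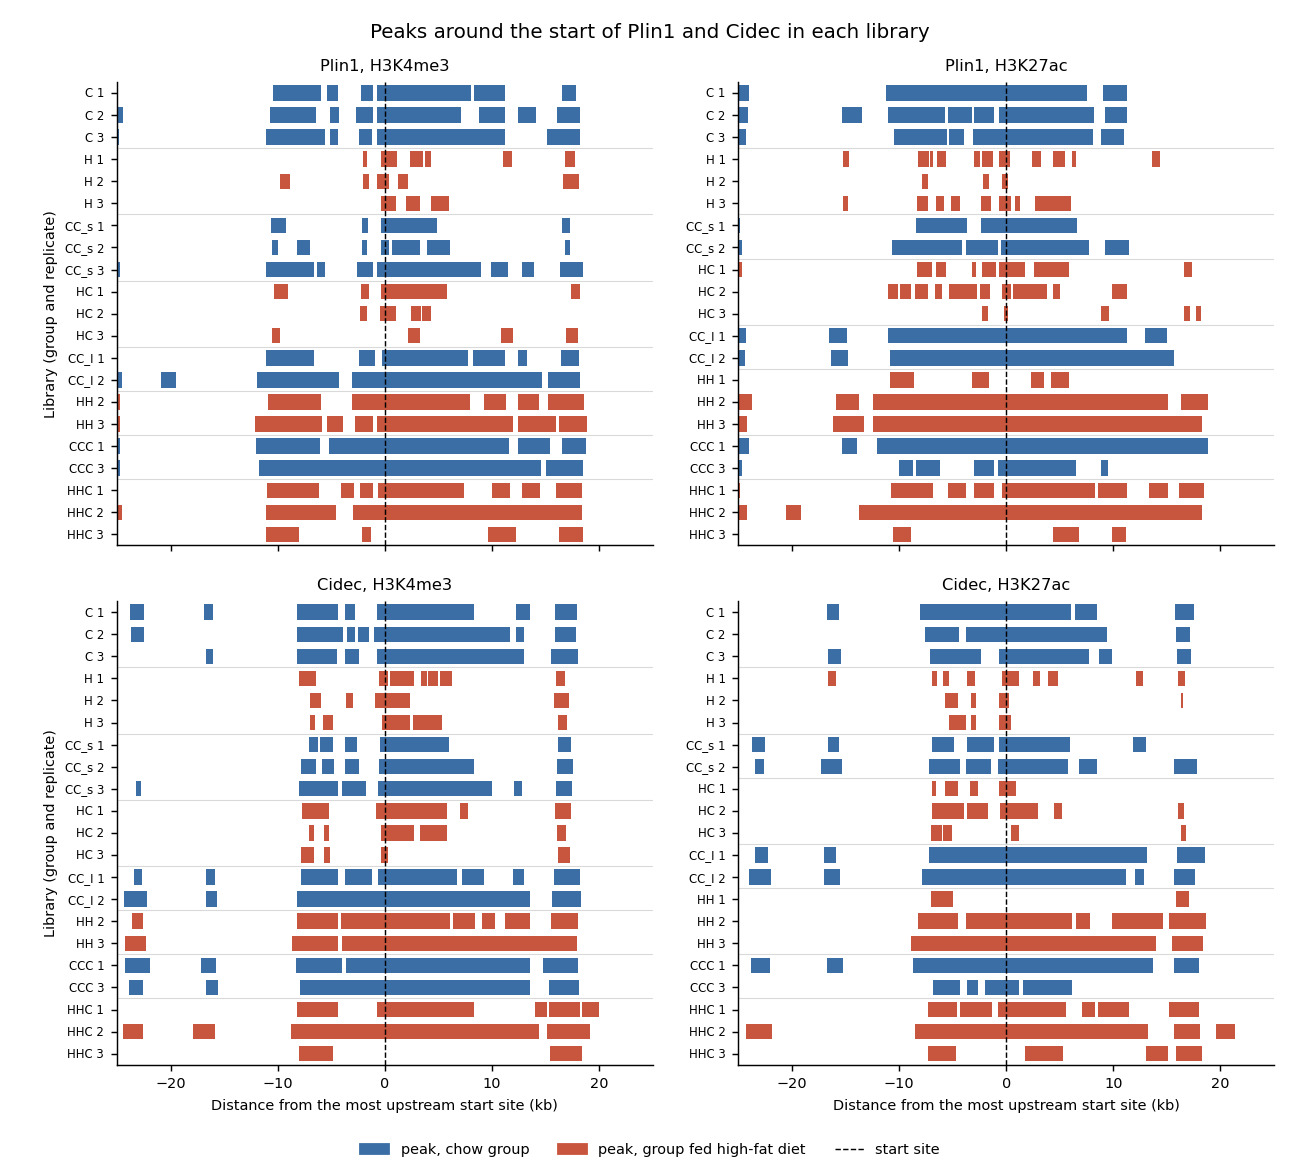
Peaks of H3K4me3 and H3K27ac (bars) in each library (rows, by group and replicate) within 25 kb of the most upstream start site of Plin1 and Cidec (x axis, kb). Bars are short around both starts in the H libraries and in HC replicate 3, and long in C and in most libraries of the 25-week cohort.

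In the gene body outside the promoter window, Plin1 was covered by H3K4me3 over 83.1, 71.9 and 84.8% of its length in C and over 23.7, 0 and 22.1% in H. In HH (74.6 and 95.7%) it overlapped CC_l (82.1 and 100%), and the mean difference was -35.3 percentage points (exact p = 0.0333, adjusted p = 1, where 2.28% of 13538 genes were lower). It did not pass when width was divided by the mean of the library (-3.25 times the mean, exact p = 0.767) or by the treatment field (-26.8 points, exact p = 0.1). Cidec was covered by H3K27ac over 62.8, 79.2 and 73.2% in C and 13.8, 0 and 0% in H, and over 100 and 100% in CC_l against 0, 70.2 and 100% in HH (difference -55.2 points, exact p = 0.02, adjusted p = 0.228, where 12.6% of 12347 genes were lower). Without HH replicate 1 it was -41.0 points (exact p = 0.05) and did not pass.

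Bscl2 was less covered after weight loss in H3K4me3 by 17.9 points (exact p = 0.03, 1.48% of genes lower) and in H3K4me1 by 24.0 points (exact p = 0.045, 1.97% lower). Neither passed without the low libraries (exact p = 0.1 and 0.0667) or at the stricter threshold (-9.22 and -21.3 points, exact p = 0.4 and 0.185). G0s2 has no body outside its promoter window.

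The 50 kb flanks hold other genes, so peaks there cannot be assigned to the members. In H3K27ac of obese mice 4 members had less covered flank (Cidec, Fitm2, Bscl2 and G0s2), where 20.9% of 17940 genes did. G0s2 flanks held 36829, 32767 and 25885 bp in C against 14711, 4211 and 8562 bp in H, and 36712 and 42954 bp in CC_l against 13145, 33946 and 35091 bp in HH (difference -17552 bp, exact p = 0.015, adjusted p = 0.136). Fitm2 flanks held 8252, 6852 and 7218 bp in C against 526, 424 and 495 bp in H (difference over both cohorts -5290 bp, exact p = 0.005, adjusted p = 0.104). Both, and Bscl2, were without overlap in both cohorts, as were 9.01% of genes. Bscl2 differed by -4629 bp (exact p = 0.005), which turned to 0.483 times the mean when divided by the mean of the library, and Cidec by -8710 bp (exact p = 0.04), which did not pass without HH replicate 1 (-6498 bp, exact p = 0.0667). Divided by the mean of the library, G0s2 (-1.39 times the mean, exact p = 0.335) and Cidec (-0.369, exact p = 0.615) did not pass either, while Fitm2 did (-1.1, exact p = 0.01). With equal numbers of peaks, the strongest of each library down to the size of the smallest list of the mark, Bscl2 (-1045 bp, exact p = 0.295) and Cidec (-3527 bp, exact p = 0.41) did not pass. Plin1 flanks had less H3K4me3 after weight loss (difference -6678 bp, exact p = 0.04, 1.32% of 19361 genes lower), which did not pass without the low libraries (-5160 bp, exact p = 0.1), by the treatment field (-5618 bp, exact p = 0.08) or with equal numbers of peaks (-4687 bp, exact p = 0.13).

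In covered bp, Plin2 was the one member with more of a mark in its flanks at p below 0.05. H3K4me1 covered 3357, 3150 and 1744 bp in C against 9237, 10463 and 5408 bp in H, and 5853 and 7120 bp in CC_l against 10186, 17164 and 18157 bp in HH. All 6 obese libraries lay above their controls, as held for 1.87% of genes, and the difference was 7151 bp (exact p = 0.01, adjusted p = 0.251, where 7.35% of 18005 genes were higher). It was 8397 bp without HH replicate 1 (exact p = 0.0167). Progenitor markers in H3K4me1 averaged 79.9, 60.8 and 21.9 in HH against 20.7 and 23.4 in CC_l, but 0 to 23.9 in H and 0 to 24.0 in C. Macrophage markers in H3K4me1 averaged 24.9, 42.6 and 29.2 in HH against 15.96 and 29.5 in CC_l, which overlap. The part of these cells in the result was not tested. In HC the covered Plin2 flank was 3269, 3638 and 0 bp against 1280 to 8849 bp in CC_s, which overlap. In HHC it was 16261, 19073 and 19797 bp against 7877 and 9000 bp in CCC, without overlap. In the weight-loss test over both cohorts no member passed in this measure, where 4.18% of 18005 genes were higher and 1.7% lower. Macrophage markers averaged 40.7, 29.5 and 38.7 in HHC and 15.4 in both CCC libraries. Progenitor markers averaged 42.5, 73.6 and 75.8 in HHC against 21.2 and 40.2 in CCC, also without overlap. The part of these cells in the HHC difference was not tested either.

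H3K4me1 at the promoters themselves was less regular. In H it was absent from Plin5 and Fitm2 in 3 of 3 libraries and from Cidec in 2 of 3, but C lacked Fitm2 in 2 of 3 and Plin5 and Cidec in 1 of 3. No member passed at p below 0.05 in obese mice (1.66% of 14230 genes lower, 2.49% higher), and after weight loss Bscl2 was lower (difference -19.8, exact p = 0.04, where 1.37% were lower and 1.55% higher), although not without the low libraries (-26.0, exact p = 0.0667), at the stricter threshold (-33.3, exact p = 0.16) or with a window of 500 bp (-0.923, exact p = 0.8). Distal regions, which touched no promoter and no H3K4me3 peak, were rare near the members, with 5 in H3K4me1 and 14 in H3K27ac within 50 kb. One was called: an H3K4me1 region of 1667 bp at chr7:79746960-79748626 within Wdr93, 14057 bp from Plin1, was marked in 2 of 2 CC_l libraries and 0 of 3 HH libraries, and in no other library, where 3.24% of 21707 distal regions were lost in HH.

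H3K27me3 was scarce at these promoters. In the 10 HFD-fed libraries it was found at 10 of 90 member promoters (11.1%), and in the 10 chow libraries at 2 of 90 (2.22%), while all promoters were marked at a mean of 18.9% and 17.9%. Without the low libraries it was 6 of 72 (8.33%) in HFD-fed mice. At Plin1 it was found in 2 of 3 HC libraries, 1 of 2 HH libraries and 1 of 3 HHC libraries, and in none of 10 chow libraries, with 165, 210, 1140 and 384 bp of the window covered. Cidec was marked in 2 of 3 HHC libraries, with 2667 and 1155 bp covered. Plin5 was marked in 1 HC, 2 HHC and 1 CC_l library, Plin4 in 1 CCC library and G0s2 in 1 HH library, and Plin2, Plin3, Fitm2 and Bscl2 in none of 20. Of the 5 members with any peak none passed a promoter test in obese or weight-loss mice (in percentile 4.68% of 10421 genes were lower and 1.91% higher in obese mice, and 3.8% and 2.47% after weight loss).

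H3K27me3 over the body of Plin1 was higher after weight loss, at 7.4, 0 and 19.5% of its length in HC against 0 in all CC_s libraries, and at 34.6, 10.4 and 14.5% in HHC against 7.61 and 0% in CCC. The difference was 12.5 points (exact p = 0.04, adjusted p = 0.448, where 1.63% of 9737 genes were higher). H libraries held 6.28 and 11.8% against 0 in all C libraries. In the obese test over both cohorts no member passed in this measure, where 1.02% of 9737 genes were higher and 6.01% lower. Without the low libraries the weight-loss difference was 11.2 points (exact p = 0.0667), and with equal numbers of peaks or at the stricter threshold it was 5.72 points (exact p = 0.5), so the call was lost in each case. The 6 adipocyte markers carried more H3K27me3 in HHC too, at 45.3, 30.7 and 28.3 against 16.4 and 15.9 in CCC, but 14.1 to 16.5 in HC against 14.9 to 15.6 in CC_s, and the part of other cells in the result was not tested.

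Between chow groups of different age (CC_s against C, CCC against CC_l) no member passed in H3K4me3 percentile (2.54% of genes lower and 2.02% higher in older mice) or H3K27ac percentile (2.44% and 0.436%). Plin1 differed by -1.77 points in H3K4me3 (exact p = 0.683) and Plin4 by 0.0133 (exact p = 1), but Plin5 by -31.3 (exact p = 0.117), since 2 CC_s libraries had no peak there. In H3K27ac flanks Plin2 and Fitm2 were lower in older mice (-4811 bp, exact p = 0.0167, and -3624 bp, exact p = 0.0333, where 3.13% of genes were lower). In H3K4me3 the CC_s controls of the weight-loss test were therefore less uniform at Plin5 than the C controls of the obese test.

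The 25 other lipid droplet genes of a list of coat, synthesis and lipase genes were compared by counts. In H3K4me3 percentile of obese mice 3 of 24 tested were lower and 2 higher at p below 0.05 (7.05% and 3.65% of all genes), with a median difference of -1.2 points. After weight loss 3 were lower and 2 higher (4.43% and 5.34%), with a median of -1.86. In promoter width of H3K27ac in obese mice 9 of 24 were lower, beside 13.9% of all genes. Of 400 presence calls in diet groups 5 were made. Cidea, a relative of Cidec known from brown fat, lost H3K4me3 and gained H3K27me3 in H, and Acsl4, a fatty acid activating enzyme, lost H3K27ac in H and, between chow groups, in CC_s against C. Lpin1, which makes diacylglycerol, and Cav1, the caveolin of the fat cell surface, gained H3K27me3 in HHC. In H, losses were called at 1.71% of all genes in H3K4me3 and 1.94% in H3K27ac and gains of H3K27me3 at 1.29%, and in HHC gains of H3K27me3 at 1.37%. Lipe, hormone-sensitive lipase, had 1231 bp less H3K27ac at its promoter in obese mice (exact p = 0.005, adjusted p = 0.251).

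The genes whose promoter percentiles were most like those of a member, over 84 libraries after the mean of each mark was subtracted, are a description only. Plin1 was closest to Acvr1c (r = 0.831) and Acsm5 (0.799), Cidec to Acacb (0.809) and Oas1f (0.687), and G0s2 to Pck1 (0.777) and Vnn3 (0.758). Plin5 was closest to Rai2 (0.816) and Hrasls5 (0.759), and Plin4 to Fgfrl1 (0.727) and Jagn1 (0.714). Plin2 followed Birc2 (0.961) and Rbck1 (0.95), Plin3 followed Ick (0.741) and Nrp1 (0.734), Fitm2 followed Lrrc59 (0.775) and Tuba1b (0.774), and Bscl2 followed Derl1 (0.873) and Krcc1 (0.761). Among the members, Plin1 had r = 0.555 with G0s2, 0.498 with Cidec and 0.492 with Plin4, but -0.0387 with Plin2 and -0.131 with Plin3.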

How the data were processed

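The authors made 84 peak lists, 1 per CUT&Tag library. Per the labels, reads were trimmed with Trim Galore 0.6.6 and aligned with Bowtie2 2.4.4 to GRCm38, processed with SAMtools 1.13 and bedtools 2.30, and peaks were called per library, without pooling, by SEACR 1.3 in stringent mode at 0.01. The deposited values are the total signal and the highest coverage (signal) of each peak. They were whole numbers in 84 of 84 libraries, that is unscaled, so signal was ranked within a library only. Reads per region were not analysed here, and no count test was run.

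Groups came from titles. Promoters were 2000 bp on either side of 41438 start sites of 21851 protein-coding genes (GENCODE, GRCm38), and at least 1 bp of a peak marked a site. Measures were covered promoter bp, promoter signal percentile, percent of gene body covered (bodies of at least 500 bp outside the window) and covered bp within 50 kb. Each was tested for all genes with a two-sided exact permutation test within cohorts, with the Benjamini-Hochberg adjustment over genes above 0 in at least 1 library of the mark, at a threshold of 0.05. The test was checked on simulated data. Members and lists were chosen with earlier results of these data known. All 9 members are named. At most 6 list genes, those called by presence or with the smallest p, are named, as are neighbours under a described peak and the 2 genes most like each member. Alternatives were equal peak numbers, a stricter threshold, treatment field labels, each library left out, a 500 bp window, a 200 bp overlap, scaled width, a 20 kb flank and a replicate block. Python 3.11.15, NumPy 2.4.6, pandas 2.3.3 and SciPy 1.17.1 were used.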

Additional observations from a re-analysis of the deposited data

Results flagged for a closer look

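The diet difference (HFD-fed minus chow) of a member was compared between the 12-week and the 25-week cohort in 252 cases, and in 18 of them the cohorts differed at an exact permutation p below 0.05. All values are the difference in the 12-week cohort minus that in the 25-week cohort. The cohorts differ in length of diet, age and possibly library preparation, which cannot be told apart.

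In H3K4me3 of obese mice, covered promoter width differed by -1576 bp at Plin2 (exact p = 0.0333) and by -3603 bp at Bscl2 (exact p = 0.0167), where 22.5% of genes differed. Bscl2 promoter percentile differed by -17.3 points (exact p = 0.0167, 5.22% of genes). At both genes H was narrower than C on average and HH wider than CC_l. Gene body cover differed by -38.7 points at Plin2, -79.8 at Plin4 and -41.9 at Bscl2 (exact p = 0.0167, 0.0333 and 0.0167, 7.93% of genes). Flank cover differed by -9881 bp at Plin3, -15561 bp at Plin4, -21476 bp at Plin5, -5836 bp at Fitm2 and -17833 bp at Bscl2 (exact p = 0.0167 or 0.0333, 29.5% of genes).

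After weight loss, H3K27ac differed by -1866 bp at the Plin2 promoter (exact p = 0.04, 7.23% of genes) and by -16070 bp in the Bscl2 flanks (exact p = 0.02, 6.64%). The CCC controls in this mark were lists of 32907 (replicate 1) and 14917 peaks (replicate 3). After weight loss H3K4me1 differed by -12634 bp in the Plin2 flanks and -9288 bp in the Bscl2 flanks (exact p = 0.025 and 0.02, 1.72%). In H3K27me3 of obese mice, flank cover differed by 3672 bp at Plin1, where H was above C and HH below CC_l, and by -10876 bp at Plin4 and -12397 bp at Plin5, whose flanks overlap (exact p = 0.0167, 0.0333 and 0.0333, 0.736% of genes).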

How the results depend on the processing

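Over 26 member differences at p below 0.05 and their alternatives, 523 of 701 values kept direction and threshold, 174 kept direction only and 4 changed direction: with width divided by the mean of the library, Fitm2 promoter width in obese mice (0.0202 in H3K4me3, 0.847 in H3K27ac) and Bscl2 H3K27ac flanks (0.483), and with a 500 bp window Plin5 H3K27ac percentile after weight loss (0.754). The cause was not tested. Presence calls numbered 2, 0 with a 500 bp window, and 2 to 4 when leaving out 1 library (4 without H3K27me3 HHC replicate 2, where Plin5 and Cidec then counted as gained). Members past p 0.05 in promoter width numbered 2, but 4 at the stricter threshold, 1 by the treatment field, 1 with a 500 bp window and 6 with scaled width (range 1 to 4 leaving out 1 library). In promoter percentile they numbered 13, 4 by the treatment field (range 9 to 15). In gene body they numbered 5, 8 with equal peak numbers, 13 with scaled width and 1 without the 3 mice lowest in adipocyte markers in H3K27ac, an alternative chosen after seeing the data (range 4 to 7). In flanks they numbered 6, 21 with scaled width and 10 with a 20 kb flank (range 4 to 9). Distal calls numbered 1, and 0 with equal peak numbers or the stricter threshold (range 1 to 2, with 2 without H3K4me1 CC_l replicate 2 or HHC replicate 2). The 6 members lower in H3K4me3 in obese mice became 0 by the treatment field (range 2 to 6).

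Whether the same replicate numbers pair libraries was not settled. Of 36 pairs 8 had deviations correlated above 0.1 (-0.504 to 0.22), but groups of 2 or 3 libraries are too small to decide it. With a replicate block the counts for width, percentile, body, flanks and the lower H3K4me3 members were each 0, since the smallest p it can give is 0.0625. Depth is unknown, groups held 2 or 3 libraries, and percentiles near 100 leave no room to rise.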
